A study of Mus musculus with 7 samples.

Results

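Interleukin and interleukin receptor genes were followed in the choroid plexus of mouse embryos after red blood cells or saline. Members were the genes whose symbol starts with Il and a number, leaving out 10 genes of the interleukin-1, interleukin-6 and related systems (Il1a, Il1b, Il18, Il1rn, Il1r1, Il34, Il6, Il6ra, Il6st and Il10rb). This gave 75 of the 40873 genes analysed, namely 36 receptor chains, 33 ligands, 3 genes of soluble antagonists (Il18bp, Il22ra2 and Il36rn) and 3 others. The 3 others are the antisense transcript Il1bos and the overlapping gene entries Il4i1 and Il4i1b, which encode an amino acid oxidase that interleukin-4 induces. Il4i1 and Il4i1b share 1979 exon bases on the same strand, so their counts of 3 and 0 in all are uncertain.

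The choroid plexus secretes cerebrospinal fluid and forms a barrier between blood and fluid. Lateral ventricle tissue came from E15.5 (embryonic day) wild-type embryos of CD-1, an outbred stock, and was pooled 24 h after treatment. Red blood cells (3 libraries) came from the blood of an E14.5 donor litter and were washed in saline, and saline alone (4 libraries) was the control. The labels put all 7 libraries in batch 1. They do not say how many embryos or litters went into a pool, so p-values measure the spread between these pools and no more.

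Interleukins are secreted signals, mostly between leukocytes, that act on nearby cells through receptors built from paired chains. One chain usually binds the ligand and a shared chain carries the signal, as the common gamma chain of Il2rg does for several T cell cytokines and Il1rap for the interleukin-1 family. Most of these receptors use Janus kinases and STAT factors, whereas the interleukin-1 and interleukin-17 families use adaptors that lead to NF-kB. Barrier and stromal cells often carry receptor chains for ligands that only leukocytes make.

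Most members of both classes had few or 0 counts, and 14 of 36 receptor chains and 5 of 33 ligands passed the count filter. Of 36 receptor chains 34 had at least 1 count, and of 33 ligands 19 had. In all, 17 members had 0 counts in every library, 38 had counts but fell below the count filter, and 20 could be tested. A gene could pass that filter through 1 group alone, so the 20 are not a neutral sample of the 75. None of the 20 passed the edgeR quasi-likelihood test over all genes (Benjamini-Hochberg adjusted p under 0.05), where 0.0605% of 14869 genes passed. At an unadjusted p under 0.05 there were 7 of the 20 (5 higher and 2 lower after red blood cells), where 9.54% of all genes tested met that limit (5.22% higher and 4.32% lower). DESeq2 was run without that count filter and gave a p-value to the 58 members with counts, some of which had no adjusted p. It called 1 member, Il18bp, where it called 1.39% of the 20103 genes with an adjusted p. On the 20 members, limma-voom called 0 without sample weights (0.0605% of genes) and 0 with them (0.323%).

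Total counts ran from 5479812 to 7944404 after red blood cells and from 4393860 to 8386928 after saline. A count of 3 thus stood for 0.378 to 0.547 and 0.358 to 0.683 CPM (counts scaled to library size, here to total counts). All 10 markers of choroid plexus epithelium were detected, with summed levels of 18210 to 19650 CPM after red blood cells and 18420 to 23690 CPM after saline. All 16 interferon response genes on a list were detected, with sums of 697, 1957 and 416 CPM in red blood cells 1, 2 and 3 and 164 to 239.5 CPM after saline. Red blood cells 2 was also the library with the most counts of neutrophil and monocyte markers, at 107 CPM summed over 11 genes. The sum of that list was 8.29 CPM in red blood cells 1, 15.9 CPM in red blood cells 3 and 5.46 to 21.8 CPM in the saline libraries. Of its genes 10 had counts, and Ly6g, a neutrophil marker, had 0 counts throughout. Log2 fold changes that move most without red blood cells 2 are therefore also given without it. In pooled tissue, fewer cells of a type and less RNA per cell cannot be told apart.

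The tested members whose groups stood apart were Il4ra, Il13ra1, Il21r and Il18bp, higher in every red blood cell library than in any saline library, and Il1rap and Il21, lower in every one. That is 4 higher and 2 lower of 20, where 4.96% of all genes tested stood apart upward and 4.63% downward. Below the filter, Il1rapl2 alone stood apart, with a total of 1 count after red blood cells and 6 after saline. The median log2 fold change of the 20 was 0.186, with 15 above 0, where 49.9% of all genes tested were above 0 and their median was 0.00. The other member with an unadjusted p under 0.05, Il2rg, had overlapping groups.

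The promoter windows of the 5 members with the lowest unadjusted p are printed here, as the regulatory sequence next to the transcripts that the results turn on. Each runs from 250 bases before to 50 bases after a RefSeq transcript start on GRCm38.p6, 5′ to 3′ on the strand of the gene, and these positions are not those of GRCm39 used for the genes elsewhere. Capitals mark matches, on either strand, to an interferon-stimulated response element core (GAAA, any 2 bases, GAAA) or to an NF-kB-like pattern (GGGA, any 4 bases, CC). A STAT pattern (TTCNNNGAA) was searched as well and had no match in these 5 windows.
Il4ra, chr7:125552021-125552320, plus strand: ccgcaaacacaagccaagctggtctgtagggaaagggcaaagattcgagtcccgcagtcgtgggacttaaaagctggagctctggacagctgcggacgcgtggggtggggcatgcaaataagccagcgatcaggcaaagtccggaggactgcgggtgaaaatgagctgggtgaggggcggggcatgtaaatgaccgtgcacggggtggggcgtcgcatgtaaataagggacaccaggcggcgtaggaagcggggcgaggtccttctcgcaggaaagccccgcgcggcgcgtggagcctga
Il1rap, chr16:26581455-26581754, plus strand: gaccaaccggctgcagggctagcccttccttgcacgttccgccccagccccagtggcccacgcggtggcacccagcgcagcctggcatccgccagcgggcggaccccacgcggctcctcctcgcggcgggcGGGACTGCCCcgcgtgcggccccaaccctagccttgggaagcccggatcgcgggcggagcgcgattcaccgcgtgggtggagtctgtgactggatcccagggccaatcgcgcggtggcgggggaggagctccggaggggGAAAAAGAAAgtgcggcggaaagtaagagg
Il13ra1, chrX:36111858-36112157, plus strand: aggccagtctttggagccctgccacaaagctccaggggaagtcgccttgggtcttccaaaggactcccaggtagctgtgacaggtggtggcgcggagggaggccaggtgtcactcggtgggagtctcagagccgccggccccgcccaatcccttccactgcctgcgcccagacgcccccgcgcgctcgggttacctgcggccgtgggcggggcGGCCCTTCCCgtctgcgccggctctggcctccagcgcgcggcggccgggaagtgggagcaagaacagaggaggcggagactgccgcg
Il21r, chr7:125603179-125603478, plus strand: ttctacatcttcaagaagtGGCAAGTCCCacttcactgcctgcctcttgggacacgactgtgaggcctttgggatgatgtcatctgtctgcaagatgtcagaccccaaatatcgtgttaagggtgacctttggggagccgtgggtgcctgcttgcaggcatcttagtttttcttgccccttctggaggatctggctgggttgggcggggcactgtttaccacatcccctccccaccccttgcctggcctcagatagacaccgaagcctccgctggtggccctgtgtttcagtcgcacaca
Il18bp, chr7:102018183-102018482, minus strand: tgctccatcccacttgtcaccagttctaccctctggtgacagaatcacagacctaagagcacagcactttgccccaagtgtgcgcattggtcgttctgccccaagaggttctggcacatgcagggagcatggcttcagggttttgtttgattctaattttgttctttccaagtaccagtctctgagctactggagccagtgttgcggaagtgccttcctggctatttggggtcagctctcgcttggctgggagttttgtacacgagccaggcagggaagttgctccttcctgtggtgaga

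The response element core occurred once, in the window of Il1rap, a gene with a lower level after red blood cells. The NF-kB-like pattern occurred in the windows of Il1rap, Il13ra1 and Il21r, and the windows of Il4ra and Il18bp held none of the 3 patterns. Of the 22 windows on file for 17 of the tested members, 1 held the response element core, 2 the STAT pattern and 7 the NF-kB-like pattern. Over 32851 windows of the same length the shares were 3.44%, 8.3% and 20.7%. Matches of different patterns did not overlap in the windows shown. A match is a run of letters and not a bound site, and a window without one says only that these letters are not in it.

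Il4ra, Il13ra1 and Il2rg, the chains of the interleukin-4 and interleukin-13 receptors, all had higher mean levels after red blood cells, and none passed the test over all genes. Interleukin-4 and interleukin-13 drive the repair-associated state of macrophages through Il4ra, which pairs with Il2rg on leukocytes and with Il13ra1 on many other cells. Il4ra had 10.7, 22.7 and 14.48 CPM in red blood cells 1, 2 and 3, against 8.13, 9.63, 7.78 and 9.27 CPM in saline 1 to 4. The lowest red blood cell library lay close to the highest saline library, and red blood cells 2 was the highest of all. The fitted level was 1.84-fold that of saline (log2 fold change 0.88 ± 0.23, SE, adjusted p = 0.176 in edgeR). Without red blood cells 2 the log2 fold change was 0.53 (edgeR adjusted p = 0.541).

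Il13ra1, which binds interleukin-13 together with Il4ra, had 19.6, 23.9 and 29.7 CPM in red blood cells 1, 2 and 3, against 17.3, 12.7, 19.5 and 13.0 CPM in saline 1 to 4. Red blood cells 1 and saline 3 were almost level, and here red blood cells 3 was the highest. The log2 fold change was 0.62 ± 0.19 (SE, adjusted p = 0.230 in edgeR), and 0.46 without red blood cells 3. Il2rg, the common gamma chain, had 5.15, 5.45 and 10.5 CPM in red blood cells 1, 2 and 3, against 5.17, 4.33, 3.47 and 4.63 CPM in saline 1 to 4. Its groups overlapped, and red blood cells 3 alone lay clear of the other libraries. Its log2 fold change was 0.66 ± 0.29 (SE, adjusted p = 0.479 in edgeR), and 0.28 without red blood cells 3. That library also had the highest sum of 8 mesenchyme markers, at 2828 CPM, where red blood cells 1 and 2 had 1740 and 1508 CPM and the saline libraries 1765 to 1918 CPM. Its sum of 8 endothelium markers was the highest too, at 1270 CPM, where red blood cells 1 and 2 had 944 and 873 CPM and the saline libraries 1041 to 1092 CPM. The part of these cells in the levels of Il13ra1 and Il2rg was not tested. Il13ra2, a decoy that holds interleukin-13 without passing a signal, had a total of 4 counts after red blood cells and 3 after saline. Of the ligands themselves, Il4 and Il13 each had 1 count, both in red blood cells 2, and 0 in every other library.

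Il21r, the receptor chain that joins Il2rg to bind interleukin-21, had 2.26, 2.87 and 2.72 CPM in red blood cells 1, 2 and 3, against 0.887, 1.604, 1.20 and 1.16 CPM in saline 1 to 4. These levels stand on 15 to 19 counts per library after red blood cells and on 5 to 10 after saline. All red blood cell libraries were above all saline libraries, with less spread between them than for Il4ra. Between the groups the log2 fold change was 1.09 ± 0.33 (SE, adjusted p = 0.235 in edgeR), and leaving out any 1 library kept it between 0.96 and 1.25. Il21r is the gene next to Il4ra on the plus strand of chromosome 7. On GRCm39 Il4ra spans 125151443 to 125178646 and Il21r 125202424 to 125232742, with 23777 bases and 0 annotated genes of the table between them.

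Il21, the ligand of that receptor, had a log2 fold change below 0. It had 7, 6 and 4 counts in red blood cells 1, 2 and 3, against 10, 10, 15 and 7 counts in saline 1 to 4. In CPM that was 0.879, 0.908 and 0.724 after red blood cells and 1.48, 1.604, 1.79 and 1.62 after saline, so the groups stood apart at a level close to that of 3 counts in a library. The log2 fold change was -0.94 ± 0.37 (SE, adjusted p = 0.406 in edgeR), and DESeq2 gave an adjusted p of 1.00. Interleukin-21 is a T cell cytokine, and the defining T cell markers Cd3d, Cd3e and Cd3g summed to 0, 1 and 2 counts after red blood cells and to 1, 0 and 1 after saline. They belong to a list of 12 markers of T cells, natural killer cells and innate lymphoid cells, of which 10 had counts. The whole list summed to 16.45 to 20.1 CPM after red blood cells and 16.99 to 22.5 CPM after saline. Of its 3178 exon bases, 300 also belong to Gm36168 on the opposite strand, which had 0 counts.

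Il18bp had the largest log2 fold change of the 20 members tested. It encodes a secreted protein that captures interleukin-18 and that interferon-gamma is known to induce. The gene had 37, 119 and 23 counts in red blood cells 1, 2 and 3, against 11, 18, 13 and 13 counts in saline 1 to 4. Its level was 4.65, 18 and 4.16 CPM after red blood cells and 1.62, 2.89, 1.56 and 3.01 CPM after saline. The groups did not overlap, and red blood cells 2 was far above the other libraries. The log2 fold change was 2.02 ± 0.59 (SE, adjusted p = 0.260 in edgeR), which is 4.04-fold, and DESeq2 called it (adjusted p = 0.0256). Without red blood cells 2 it was 1.00 (edgeR adjusted p = 0.524).

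The summed interferon response genes ran in the same order over the red blood cell libraries as Il18bp, as the heat map of single libraries shows. Whether the interferon response has a part in the level of Il18bp was not tested. Of the 4609 exon bases of Il18bp, which lies at 101664281 to 101669699 on the minus strand of chromosome 7 (GRCm39), 1356 are shared with Rnf121 on the same strand. Rnf121 had 115, 80 and 82 counts after red blood cells and 76, 74, 93 and 51 counts after saline, so it did not share the high value of red blood cells 2. How reads on shared bases were assigned is not stated in the sources used here.

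**Figure D1:**
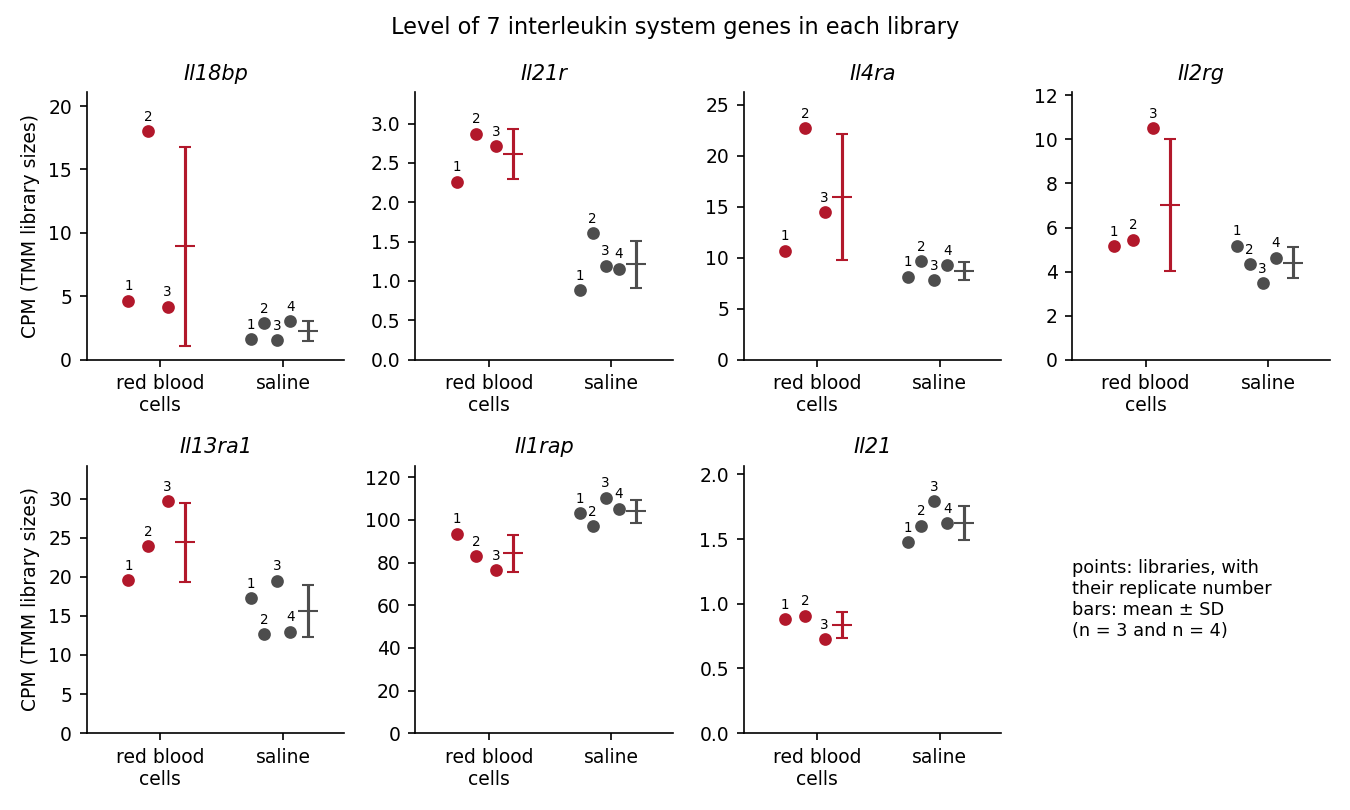
Level in CPM of the 7 members with an unadjusted p under 0.05 in each library, red blood cells (red) left of saline (grey), with replicate numbers at the points and bars for the mean ± SD (n = 3 and n = 4). Il18bp and Il4ra are highest in red blood cells 2 and Il2rg and Il13ra1 in red blood cells 3, while all 3 red blood cell libraries lie below all saline libraries for Il1rap and Il21.

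Il1rap, the member with the most counts, had a lower mean level after red blood cells and did not pass the test over all genes. Il1rap is the accessory chain that interleukin-1, interleukin-33 and interleukin-36 receptors need to signal. It had 93.4, 82.9 and 76.4 CPM in red blood cells 1, 2 and 3, against 103, 97.1, 110 and 105 CPM in saline 1 to 4. The groups did not overlap, and the spread within each was small, at 84.2 ± 8.59 CPM (SD, n = 3) after red blood cells and 103.9 ± 5.46 CPM (SD, n = 4) after saline. Its fitted log2 fold change was -0.30 ± 0.09 (SE, adjusted p = 0.198 in edgeR), and it lay between -0.38 and -0.24 when any 1 library was left out. The exons of Il1rap cover 13345 bases between 26400259 and 26548878 on the plus strand of chromosome 16 (GRCm39).

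Per exon length, Il1rl2 had 1.54 CPM per kb in the saline libraries, where Il1rap, the chain it pairs with, had 7.79. Il1rl2, which binds interleukin-36, had 9.29, 10.7 and 5.98 CPM in red blood cells 1, 2 and 3, against 8.28, 6.90, 7.18 and 8.57 CPM in saline 1 to 4, and the groups overlapped (log2 fold change 0.18 ± 0.22, SE, adjusted p = 0.880 in edgeR, and 0.0067 without red blood cells 2). Il1rl1, which binds interleukin-33, had 6, 3 and 3 counts after red blood cells and 4, 3, 3 and 3 counts after saline. It was thus detected in every library and always near the floor of 3 counts. Il33, the alarm signal of barrier and stromal cells, had 71, 56 and 43 counts after red blood cells and 67, 46, 74 and 11 counts after saline. Saline 4 stood below the other 6 libraries at 2.55 CPM, where they had 7.38 to 9.90 CPM. The log2 fold change of Il33 was 0.19 ± 0.33 (SE, adjusted p = 0.930 in edgeR), and it was -0.05 without saline 4.

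Other interleukin-1 family genes had few counts, with some of the highest in red blood cells 2. Il1r2, a decoy receptor for interleukin-1, had 2, 19 and 1 counts after red blood cells and 4, 0, 1 and 0 counts after saline. Il18rap, the accessory chain of the interleukin-18 receptor, had 3, 26 and 5 counts after red blood cells and 1, 1, 1 and 6 counts after saline. Both were highest in red blood cells 2, the library with the most neutrophil and monocyte marker counts, and a part of these cells in the values was not tested. Il36g, an epithelial interleukin-36, had 1, 7 and 0 counts after red blood cells and 0, 0, 2 and 0 counts after saline, again with most in red blood cells 2. Il1rapl1, which organises synapses, had 3, 5 and 0 counts after red blood cells and 7, 9, 9 and 1 counts after saline, and the groups overlapped. The antisense transcript Il1bos had 0, 0 and 1 counts after red blood cells and 3, 2, 4 and 0 counts after saline.

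Receptor chains of the interleukin-17 system had overlapping groups. Interleukin-17 acts on epithelium and stroma through Il17ra with Il17rc, and Il17rd is a related chain known for restraining growth factor signalling. Il17rc had 30.3, 37.8 and 25.3 CPM in red blood cells 1, 2 and 3, against 29.4, 27.9, 27.4 and 30.6 CPM in saline 1 to 4. Il17ra had 16.4, 23.4 and 14.3 CPM after red blood cells and 15.1, 15.1, 17.8 and 13.4 CPM after saline. Both overlapped between the groups, with log2 fold changes of 0.12 ± 0.13 and 0.23 ± 0.18 (SE, adjusted p = 0.868 and 0.771 in edgeR), and without red blood cells 2 these were -0.04 and -0.0018. Il17rd had 59.4, 58.8 and 58.5 CPM after red blood cells and 59.3, 58.2, 62.3 and 55.4 CPM after saline. Its log2 fold change of 0.00 ± 0.07 (SE, adjusted p = 0.999 in edgeR) carried the smallest error of the 20 members.

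Ligands of the interleukin-17 family split into those present and those at 0. Il25, the member that activates type 2 responses, had 129, 88 and 75 counts after red blood cells and 69, 99, 96 and 62 counts after saline (log2 fold change 0.16 ± 0.18, SE, adjusted p = 0.869 in edgeR). The groups overlapped, at 14.4 ± 1.595 CPM (SD, n = 3) after red blood cells and 13.0 ± 2.603 CPM (SD, n = 4) after saline. Il17rb, the chain that binds interleukin-25, had a total of 2 counts in each group. Il17d, an orphan-like member expressed in many tissues, had 16, 16 and 11 counts after red blood cells and 13, 15, 19 and 6 counts after saline (log2 fold change 0.07 ± 0.31, SE, adjusted p = 0.981 in edgeR). Il17a, Il17f and Il17b had 0 counts in every library, and Il17c had 3 counts after red blood cells and 1 after saline. Il17re, the receptor chain for interleukin-17C, had 0, 3 and 1 counts after red blood cells and 2, 1, 1 and 3 counts after saline.

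Il11ra1 binds interleukin-11, which signals through the shared chain gp130. It had 161, 170 and 92 counts after red blood cells and 141, 120, 214 and 76 counts after saline, or 20.9 ± 4.56 CPM (SD, n = 3) and 20.8 ± 3.45 CPM (SD, n = 4). The groups overlapped, with a log2 fold change of 0.00 ± 0.17 (SE, adjusted p = 0.998 in edgeR). Its near-identical copy Il11ra2 had 0 counts, and how reads that match both were counted is not stated there either. Il11 itself had 7, 4 and 0 counts after red blood cells and 4, 2, 7 and 1 counts after saline.

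Il10ra, the leukocyte chain that binds the anti-inflammatory interleukin-10, had 3.77, 5.45 and 1.81 CPM in red blood cells 1, 2 and 3, against 2.51, 1.93, 2.75 and 1.39 CPM in saline 1 to 4. Red blood cells 1 and 2 were above all saline libraries and red blood cells 3 was within their range. For Il10ra the log2 fold change was 0.75 ± 0.38 (SE, adjusted p = 0.584 in edgeR), and 0.37 without red blood cells 2. Interleukin-10 itself (Il10) had 0 counts in every library. The 13 macrophage markers were all above the count filter and none was at 0. Their summed level was 325, 483 and 392 CPM in red blood cells 1, 2 and 3, against 186 to 255 CPM after saline, and its part in the levels of Il10ra, Il4ra, Il21r and Il2rg was not tested.

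The remaining tested members overlapped between the groups. Il16, a leukocyte attractant, had a log2 fold change of 0.56 ± 0.37 (SE, adjusted p = 0.713 in edgeR), with 19, 33 and 23 counts after red blood cells and 23, 9, 18 and 15 counts after saline. Without red blood cells 2 the log2 fold change was 0.32 for Il16, -0.03 for Il3ra and -0.27 for Il15ra. Il3ra, the interleukin-3 binding chain, had a log2 fold change of -0.21 ± 0.27 (SE, adjusted p = 0.898 in edgeR), and Il15ra, which presents interleukin-15, one of -0.04 ± 0.35 (SE, adjusted p = 0.991 in edgeR). Il12rb2, an interleukin-12 receptor chain, had one of 0.30 ± 0.32 (SE, adjusted p = 0.860 in edgeR). It shares 2373 of its 8324 exon bases with Serbp1 on the opposite strand, which had 1586 to 2851 counts per library, so its 10 to 27 counts per library are uncertain.

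**Figure D2:**
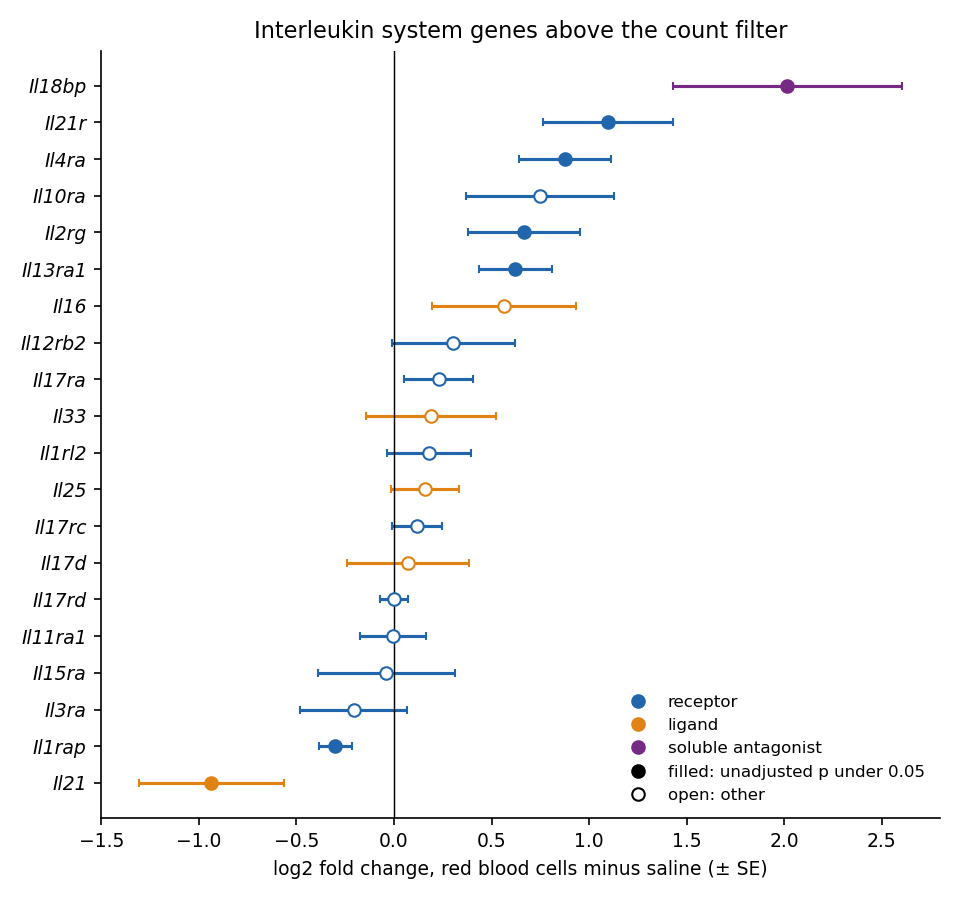
Log2 fold change, red blood cells minus saline, with its SE for the 20 members above the count filter, coloured by class and filled where the unadjusted p is under 0.05. The points run from -0.94 for Il21 to 2.02 for Il18bp, and 15 of 20 lie above 0.

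Scaled to exon length, the order of levels put a ligand first. The mean level over the saline libraries was 12.2 ± 2.45 CPM per kb of exon (SD, n = 4) for Il25, 11.5 ± 0.578 for Il17rc and 10.6 ± 1.76 for Il11ra1, and these 3 neighbours did not differ beyond their spread. Il1rap followed at 7.79 ± 0.410 CPM per kb and Il17rd at 7.18 ± 0.351 CPM per kb, within 2 SD of each other. After red blood cells the length-scaled level was 13.5 CPM per kb for Il25, 12.4 for Il17rc, 10.6 for Il11ra1, 7.19 for Il17rd and 6.31 for Il1rap, so that Il17rd and Il1rap changed places. Il13ra1 had 6.56 CPM per kb after red blood cells and 4.20 CPM per kb after saline. At the low end of the tested members lay Il16, Il21r, Il15ra and Il12rb2, with 0.340 to 0.437 CPM per kb in saline.

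**Figure D3:**
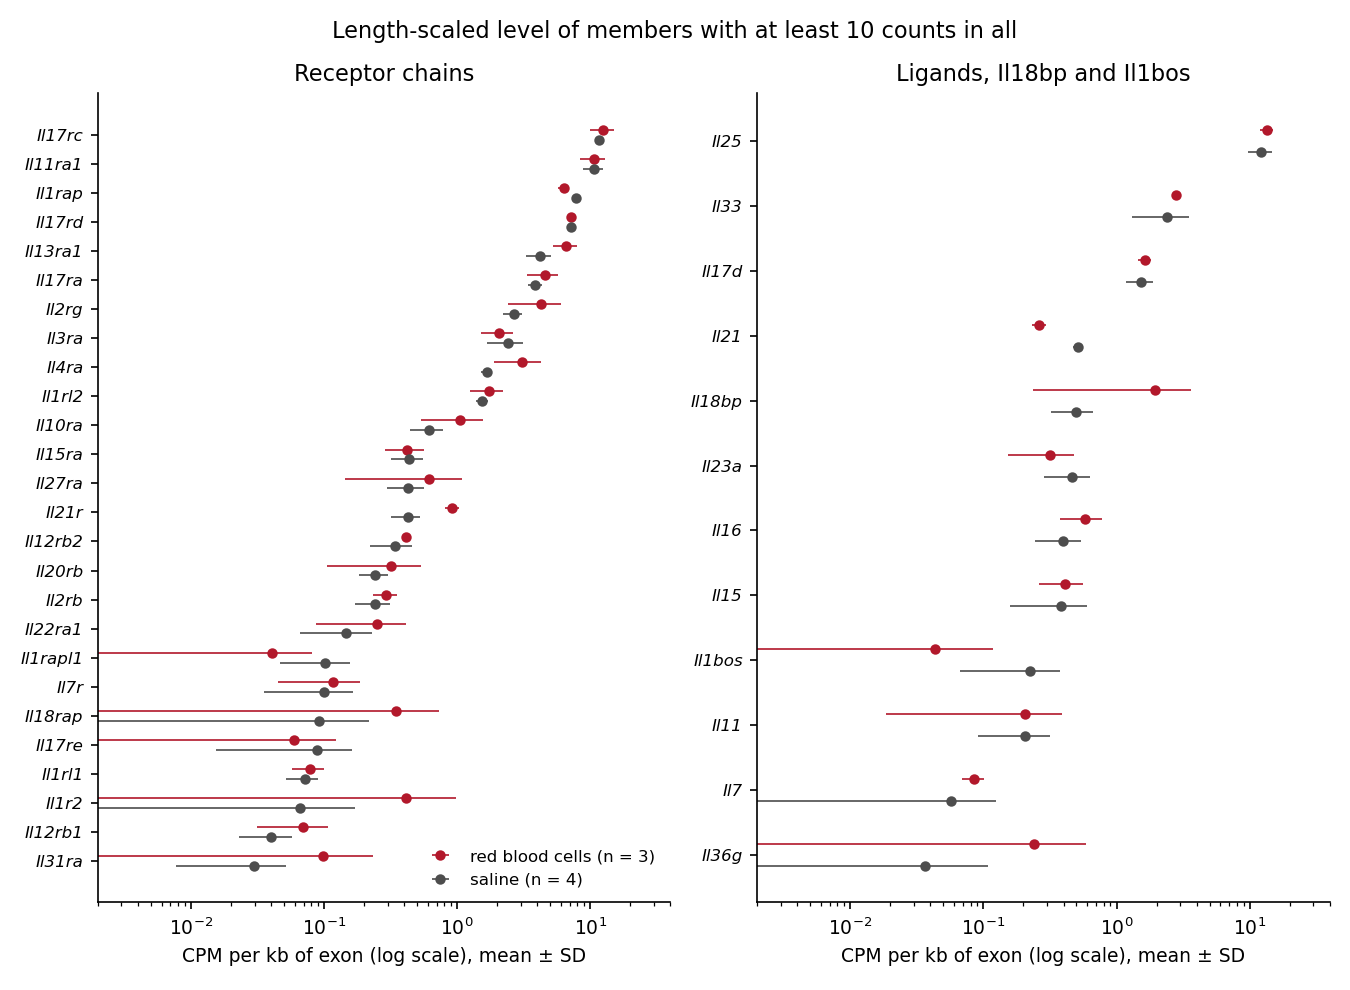
Mean level in CPM per kb of exon (log scale, bars ± SD, cut at the left edge where they would reach 0) of members with at least 10 counts in all, red blood cells (n = 3) above saline (n = 4) in each row, receptor chains on the left and other members on the right. Levels of Il25, Il17rc and Il11ra1 exceed 10 CPM per kb in both groups. For Il18bp, Il21r and Il4ra the mean is higher after red blood cells, and the bars of Il18bp overlap.

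Below the count filter, 18 members had at least 10 counts over the 7 libraries and 20 had fewer, at most 7. Il15, which keeps natural killer and memory T cells alive, had 13, 6 and 5 counts after red blood cells and 5, 3, 16 and 5 counts after saline. Il7, a growth factor of lymphocytes, had 2, 2 and 2 counts after red blood cells and 0, 0, 3 and 2 counts after saline, and Il23a, a subunit of interleukin-23, had 4, 4 and 1 counts and 4, 6, 4 and 2 counts. The groups overlapped for each of these ligands. Among receptor chains, Il27ra, which shares 386 of 2857 exon bases with Palm3 on the opposite strand, had 6, 8 and 18 counts after red blood cells and 10, 6, 7 and 7 counts after saline, and Il22ra1, an epithelial chain of the interleukin-22 receptor, had 11, 16 and 3 counts and 7, 9, 4 and 2 counts. Il2rb had 8, 10 and 8 counts after red blood cells and 7, 9, 10 and 3 counts after saline, and Il7r had 5, 1 and 4 counts and 1, 4, 2 and 3 counts. None of these stood apart between the groups.

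Il20rb, a chain for interleukin-20 cytokines, had 9, 7 and 1 counts after red blood cells and 5, 3, 6 and 2 counts after saline. Il31ra had 2, 0 and 8 counts after red blood cells and 2, 1, 0 and 1 counts after saline, and Il12rb1 had 3, 4 and 1 counts and 1, 1, 3 and 1 counts. In the fit with no count filter, which took in all 58 members with counts, 0 passed (edgeR adjusted p under 0.05) where 0.522% of 26065 genes did, and 7 had an unadjusted p under 0.05, where 7.35% of genes had. All 7 were members above the filter in the main fit, Il10ra among them and Il21 not.

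The ligands at 0 counts in all 7 libraries were Il3, Il9, Il10, Il12b, Il17a, Il17b, Il17f, Il1f10, Il20, Il22, Il22b, Il24, Il27 and Il31. Among them are some cytokines of helper T cells and of activated dendritic cells, while Il4, Il5, Il13, Il21 and Il23a had at least 1 count. A count of 0 allows up to 3 counts in a library, or 0.683 CPM on total counts in the shallowest one. Il2 had 1 count in red blood cells 1, and Il5 had 1 count in saline 1 and 1 in saline 4. Receptor chains above the count filter whose ligand had 0 counts or 1 include Il4ra and Il13ra1, Il10ra, Il17rc and Il3ra. The counts are of RNA in the choroid plexus pools and say nothing of ligand that reaches the tissue in fluid or blood.

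Partner chains and ligands of the same receptor families under other symbols were taken as a list of 18 genes, with the shared chains left out of the members. Of these, 14 could be tested. With edgeR over all genes 0 passed, and DESeq2, which gave a p-value to all 18, called 1 (Osmr). The limit of an unadjusted p of 0.05 in edgeR was met by 7 that were higher and 1 that was lower. Over all genes DESeq2 called 1.39%, and 5.22% were higher and 4.32% lower at that limit. The most abundant were Il6st, which encodes gp130, Lifr, Il10rb and Osmr. Il6st had 183 ± 19.9 CPM after red blood cells (SD, n = 3) and 149 ± 9.35 CPM after saline (SD, n = 4), with a log2 fold change of 0.30 ± 0.08 (SE, adjusted p = 0.196 in edgeR). Osmr, the oncostatin M and interleukin-31 receptor chain, had 34.4, 45.2 and 25.0 CPM in red blood cells 1, 2 and 3, against 23.2, 19.4, 20.9 and 22.0 CPM in saline 1 to 4 (log2 fold change 0.71 ± 0.17, SE, adjusted p = 0.142 in edgeR). For Il6st and Osmr the groups did not overlap. Il10rb, the partner of Il10ra, had 46.6 to 77.6 CPM after red blood cells and 33.8 to 41.9 CPM after saline. Without red blood cells 2 the log2 fold change was 0.27 for Il10rb, where it was 0.55 with it, and 0.48 for Osmr. Lifr overlapped between the groups (log2 fold change -0.21 ± 0.17, SE, adjusted p = 0.792 in edgeR). The median log2 fold change of the 14 was 0.339.

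Downstream signalling genes were a list of 23 kinases, STAT factors, adaptors and feedback inhibitors, of which 22 could be tested. None passed the edgeR test over all genes. An unadjusted p under 0.05 was reached by 6 (all higher, where 5.22% of all genes were), and the median log2 fold change was 0.145. DESeq2, which gave a p-value to all 23, called 5 (Jak3 and Stat3 among them, where it called 1.39% of all genes). Jak3, the kinase bound to the common gamma chain and picked here after its values were seen, had 26.6, 42.5 and 26.3 CPM in red blood cells 1, 2 and 3, against 15.7, 12.5, 10.6 and 13.9 CPM in saline 1 to 4. The groups stood well apart, with a log2 fold change of 1.28 ± 0.19 (SE, adjusted p = 0.0608 in edgeR). Jak3 passed in each fit that left out 1 red blood cell library and in none that left out 1 saline library. Over all genes the former fits called 17 to 283 and the latter 1 to 5, where the main fit called 9. The pattern of calls is thus not particular to Jak3. Stat3, which serves interleukin-10, interleukin-21 and gp130 receptors, had a log2 fold change of 0.70 ± 0.14 (SE, adjusted p = 0.104 in edgeR). Stat6, which serves Il4ra and was also picked after its values were seen, had one of 0.06 ± 0.11 (SE, adjusted p = 0.934 in edgeR), which was -0.08 without red blood cells 2. Jak1 and Tollip, the most abundant of the list beside Irak1 and Stat3, had 0.10 ± 0.06 and 0.00 ± 0.07.

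**Figure D4:**
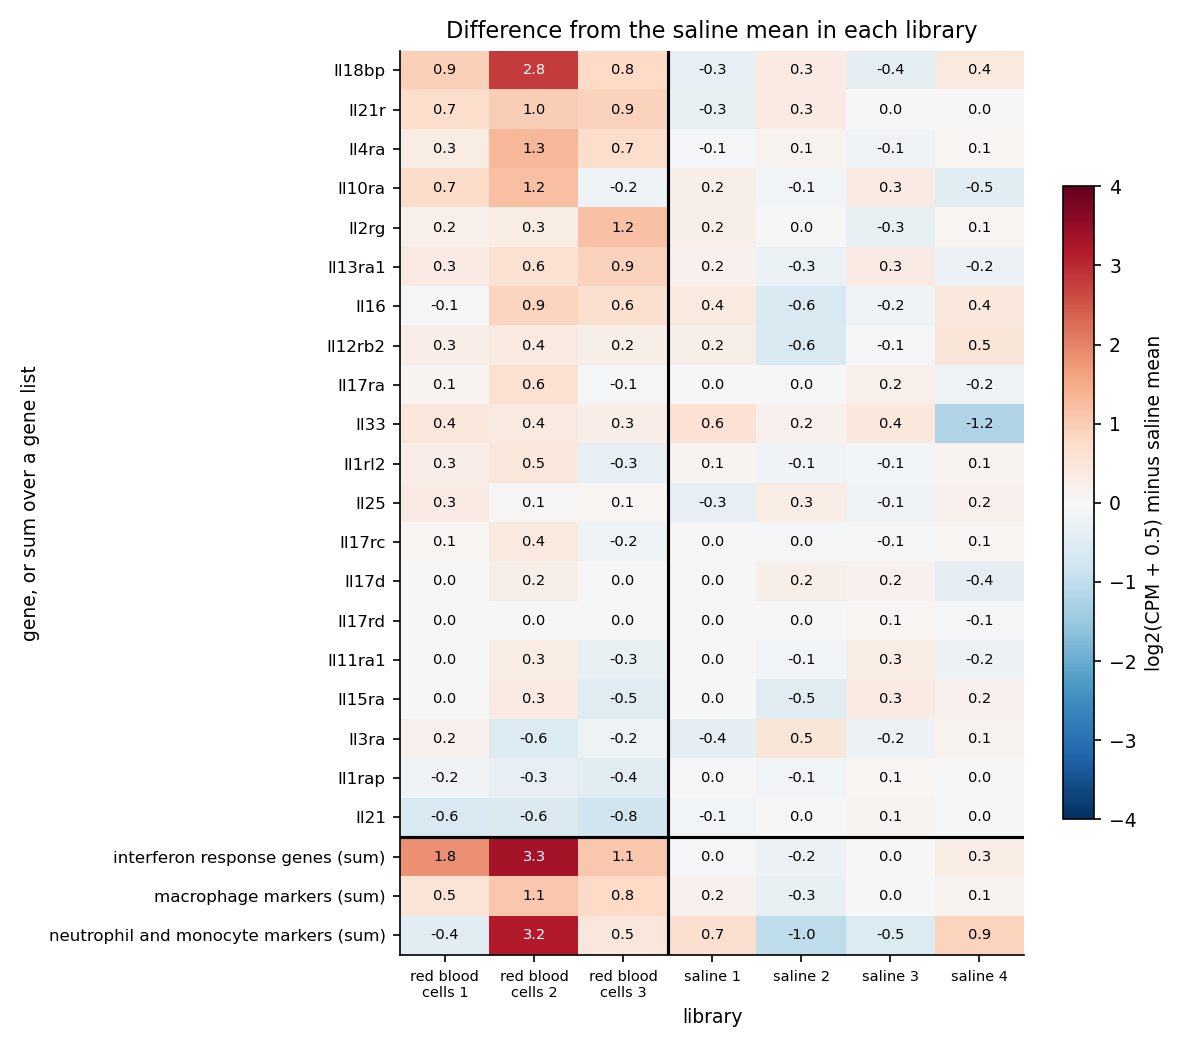
Difference of each library from the saline mean on the scale of log2(CPM + 0.5), for the 20 tested members (rows, by log2 fold change) and for the summed CPM of 3 gene lists below the line, red blood cell libraries left of saline libraries. Il18bp and the interferon response sum are highest in red blood cells 2 (2.785 and 3.323), Il2rg is highest in red blood cells 3, and Il33 is lowest in saline 4.

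Genes that interleukin-4, interleukin-10 or interleukin-17 are known to induce made up a list of 21, of which 8 could be tested. None passed the edgeR test over all genes. An unadjusted p under 0.05 was reached by 5 (all higher, where 5.22% of all genes were). DESeq2, which called 1.39% of all genes, gave a p-value to 17 of the list. It called 4 (Mrc1, Zc3h12a, Nfkbiz and Cxcl5, the last of which was below the count filter of edgeR). Mrc1, the mannose receptor of macrophages, had 118 ± 38.3 CPM after red blood cells (SD, n = 3) and 70.4 ± 7.79 CPM after saline (SD, n = 4), and a log2 fold change of 0.74 ± 0.21 (SE, adjusted p = 0.274 in edgeR). The 13 macrophage markers had a median log2 fold change of 0.968. Of them edgeR called 1 and DESeq2 9, where they called 0.0605% and 1.39% of all genes. The part of macrophages in the level of Mrc1 was not tested. Lcn2, an iron-binding protein, had 4.90, 307 and 1.63 CPM in red blood cells 1, 2 and 3, against 0.739, 0.321, 0.120 and 25.7 CPM in saline 1 to 4. Its 2 highest values were in red blood cells 2 and saline 4, one in each group. Nfil3 and Etv3, both factors linked to interleukin-10, had log2 fold changes of -0.01 ± 0.09 and 0.23 ± 0.09 (SE, adjusted p = 0.991 and 0.416 in edgeR). Many of these genes also answer other signals, and the list does not tell them apart.

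In sum over all 75 members, the level was 331, 380 and 312.5 CPM in red blood cells 1, 2 and 3, against 320, 310, 336 and 313 CPM in saline 1 to 4. The groups overlapped. Il1rap and Il17rd together held 46.2%, 37.3% and 43.2% of the members' counts in red blood cells 1, 2 and 3, against 50.7%, 50.1%, 51.4% and 51.3% in saline 1 to 4, so that their share was lower in every red blood cell library. Markers of T cells, natural killer cells and innate lymphoid cells summed to 16.4 to 20.1 CPM after red blood cells and 16.99 to 22.5 CPM after saline, with Ncr1 and Nkg7 at 0. Mast cell and basophil markers summed to 46.0 to 67.6 CPM and 52.0 to 61.4 CPM, nearly all of it Hdc, and Mcpt4 and Fcer1a had 0 counts.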

How the data were processed

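Poly(A) RNA of 7 choroid plexus pools was sequenced from directional libraries, per the labels' protocols. The authors deposited unnormalized read counts for each gene, per the file headers, which follow featureCounts. Tools named in the submitters' processing notes are featureCounts 2.0.6, STAR 2.6.1b and cutadapt 2.5, and the build is GRCm39. Which annotation release was used, and how strand and multi-mapped reads were handled, are not given in the sources at hand, so values of overlapping and near-identical genes are uncertain. Gene positions are those of the deposited table.

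Of 40879 genes, 6 whose lines are broken over 2 lines were left out, none of them a member. Their continuation lines, which carry no gene name, hold 0.107% of the counts. The floor of 3 counts covers counting error only, whereas SDs and SEs also hold the spread between pools.

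Counts were tested with edgeR 4.0.16 (robust quasi-likelihood F test, two-sided, TMM, filterByExpr) under R 4.3.3, adjusted by Benjamini-Hochberg over 14869 genes at 0.05, with no block. A log2 fold change above 0 means higher after red blood cells, and SEs were derived from the F statistic. CPM use TMM library sizes, except those given for a count of 3, which use total counts. The tests were checked on simulated counts. Alternatives were DESeq2 1.42.0, limma-voom (limma 3.58.1) with and without sample weights, other normalizations and count filters, no robust estimation, a replicate block and left-out libraries. Promoter windows came from RefSeq on GRCm38.p6. Figures were drawn with matplotlib 3.10.9.

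Members and lists were chosen with earlier results of these data known. Values are given for every tested member, in each library for those with an unadjusted p under 0.05 or a mean count of at least 50, and as counts for members below the filter with at least 10 counts in all and for a fixed set of cytokines. Of the other lists, up to 4 of the most abundant genes are named where none passed, and further genes were picked after their values were seen.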

Additional observations from a re-analysis of the deposited data

Results flagged for a closer look

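Of 38 members looked at, 2 had a saline library far from the other 3 by Dixon's criterion, which chance gives in about 1 of 20 such groups. Il18rap had 1.39 CPM in saline 4 (6 counts), where the other saline libraries had 0.120 to 0.160 CPM (1 count each). Il36g had 0.239 CPM in saline 3 (2 counts), where the other saline libraries had 0 counts. Both stand on few counts, and neither gene could be tested.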

How the results depend on the processing

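The 20 tested members gave 339 log2 fold changes under 17 alternatives. Of these, 307 kept direction and side of the threshold, 31 had the other sign and 1, Il18bp with DESeq2, passed (2.00, adjusted p = 0.0256). Il21 could not be fitted without saline 3, where it fell below the filter. For 12 members the sign held under every alternative run, among them the 7 with an unadjusted p under 0.05. The number of members called was 0, but 1 with DESeq2. It was 0 in all fits that left out 1 library. For partner genes it was 0, 1 with DESeq2 and 0 to 1 with 1 library left out. For signalling genes it was 0, 5 with DESeq2, 2 with sample weights, 2 with no count filter, 1 (Jak3) without red blood cells 2 and saline 4 together, and 0 to 5 with 1 library left out (5 without red blood cells 3). For target genes it was 0, 4 with DESeq2, 1 with no count filter and 0 to 1 with 1 library left out. Calls over all genes moved as well. The main fit called 9 of 14869 genes, DESeq2 280 of 20103, sample weights 48 of 14869 and no count filter 136 of 26065. Dropping red blood cells 3 gave 283 of 15175, so the 5 signalling calls of that fit came with many others. Dropping either of the other libraries of that group gave 17 and 34, and dropping a saline library gave 1 to 5. The cause of these shifts was not tested. Signs turned for values close to 0. Il15ra had 0.0716 with sample weights and 0.018 with the replicate block. Il11ra1 had 0.0002 with DESeq2, 0.0305 with sample weights and 0.0027 with no count filter. Il17rd had -0.0030 with limma-voom, -0.0161 with upper-quartile normalization, -0.0169 with the replicate block and -0.0208 without red blood cells 2 and saline 4. Without these 2 libraries Il17rc had -0.0108, Il17ra -0.0509, Il3ra 0.0094, Il17d -0.1314 and Il33 -0.0531. With the replicate block, which leaves out saline 4, Il17d had -0.0303 and Il33 -0.0421, and without saline 4 alone -0.0316 and -0.0453. With 1 library left out the log2 fold change ran from -0.27 to 0.17 for Il15ra, -0.18 to 0.13 for Il11ra1, -0.0426 to 0.24 for Il17rc, -0.0018 to 0.36 for Il17ra, -0.018 to 0.0369 for Il17rd, -0.0316 to 0.16 for Il17d and -0.0453 to 0.37 for Il33. Libraries of the same replicate number had correlations of deviations from their group means of -0.008, -0.173 and -0.173 for numbers 1, 2 and 3. Red blood cells 1 correlated best with saline 3. With so few libraries in each group, these values cannot tell whether the libraries were paired. The fit with the replicate block also leaves out saline 4, which has no partner. In it, 0 members, 0 partner, 0 signalling and 0 target genes passed, and 2 of all genes did, against 5 without saline 4 and with no block. The filter of 1 CPM in 3 libraries kept 15725 genes, more than the main filter. Il21 stands on 4 to 15 counts per library and Il21r on 5 to 19, the lowest of the 7 members with an unadjusted p under 0.05.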
